A study of Mus musculus with 7 samples.

Results

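MHC class II antigen presentation was described in mouse heart tissue through 8 genes chosen by name, out of 56980 genes in the deposited table: H2-Aa, H2-Ab1, H2-Eb1, H2-DMa, H2-DMb1, Cd74, Ciita and Cd86. All 8 were found in the table. The mice were wild-type male C57BL/6J animals, obtained at the age of 8 weeks, whose left coronary artery was ligated to cause a myocardial infarction (MI group, n = 3) or who went through the operation without ligation (sham group, n = 4). Myocardial tissue was taken 4 days after MI, and total RNA was sequenced, giving 7 libraries. The study describes the MI samples as ischemic myocardium. The sources used here do not say whether tissue of several mice was pooled in a library, or on which day the sham hearts were taken. Each library is called a mouse below, and the p-values measure the spread between these libraries.

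Antigen-presenting cells, such as dendritic cells, macrophages and B cells, cut proteins taken up from outside into peptides and show them on MHC class II molecules to CD4+ T cells. A class II molecule is a pair of an alpha and a beta chain, which is assembled around the invariant chain CD74 and loaded with peptide in endosomes with the help of H2-DM. The transcriptional coactivator CIITA switches class II genes on, and CD86 gives the T cell a second signal through CD28. Cardiomyocytes, which make up most of the mass of the heart, are not known as class II presenting cells, so class II RNA in heart tissue is mainly attributed to resident and recruited leukocytes.

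Levels are given as FPKM, a count of sequenced fragments scaled by the length of the gene and by the fragments of the whole library. Depths recovered from the steps of the FPKM values lay between 19977722 and 23610881 fragments per mouse. One of the 3 MI mice stood apart from the other MI mice in the whole transcriptome. Across the tested genes, Pearson's r (a description, since genes are not independent) with the sham mice was 0.984 to 0.987 in MI replicate 2 but only 0.878 to 0.881 in MI replicate 1, with 0.903 to 0.906 in MI replicate 3. The sham mice correlated with each other at 0.989 to 0.992. Mitochondrially encoded genes held 26.5% to 27.4% of the fragments in the sham mice and 28.2% in MI replicate 2, but 13.6% and 14.9% in MI replicates 1 and 3. The library labelled MI replicate 2 thus resembled the sham mice in both measures, and every mean and p-value over 3 MI mice includes it. In some list genes it lay above every sham mouse instead, as in Rag1, with 43 fragments against 0 in each sham mouse. What its MI label stands for is therefore in doubt, and the cause of the likeness was not tested. Values with and without MI replicate 2 are given for the tests of the members and of the lists.

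The class II genes were much more abundant in MI replicates 1 and 3 than in any sham mouse, and near the sham level in MI replicate 2, at 0.928 to 1.25 times the sham mean for 7 of the genes and 1.87 times for Ciita. In MI replicates 1 and 3 the mean FPKM of the 8 genes was between 3.55 times (Cd86) and 11.3 times (Ciita) the sham mean. These ratios are of unscaled FPKM, and a typical gene also read higher in these 2 mice. Its median ratio to the geometric mean over the mice was 1.26 and 1.2 there and 0.913 to 0.935 in the sham mice. With all 3 MI mice the ratio of means ran from 2.70 for Cd86 to 8.17 for Ciita. In 4 of the 8 genes, H2-Aa, H2-DMa, Cd74 and Ciita, all 3 MI mice lay above all 4 sham mice, which was also the case in 12.0% of the 30504 genes above 0 in any mouse. Of the 5 members tested below, 2 (H2-Aa and Cd74) were among these 4, and the share of all genes tested was 16.1%. In the other 4 genes MI replicate 2 lay inside the sham range. These are bulk samples, in which more cells of a type and more RNA per cell cannot be told apart.

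**Figure D1:**
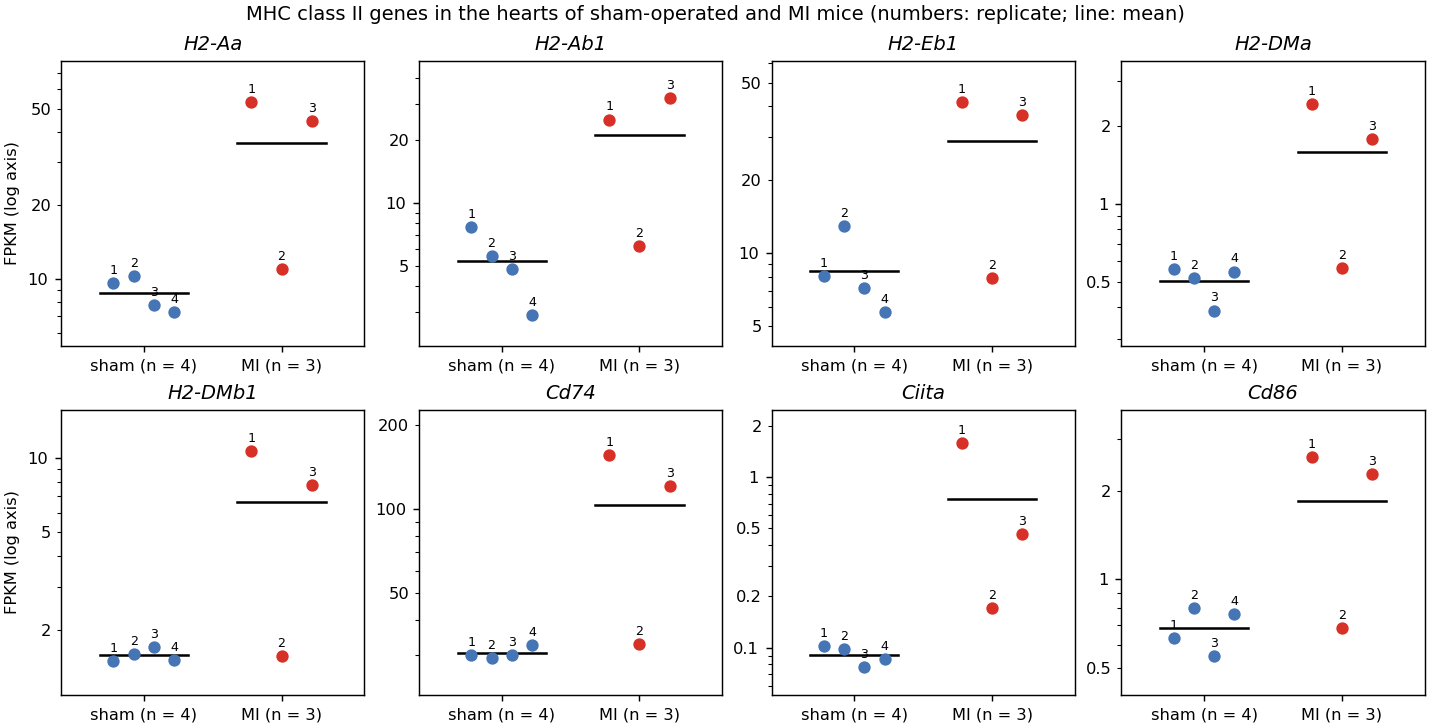
FPKM of the 8 class II genes in each mouse, on a log axis that differs between panels; blue points are the 4 sham mice, red points the 3 MI mice, the numbers give the replicate and the black lines the group means. MI replicates 1 and 3 lie above every sham mouse in all 8 panels, and MI replicate 2 lies in or near the sham range, farthest above it for Ciita (0.170 against at most 0.102).

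H2-Aa encodes the alpha chain of I-A, the class II molecule that C57BL/6 mice display (ENSMUSG00000036594, minus strand of chromosome 17, 34282744 to 34287823, GRCm38). Its FPKM was 9.59, 10.2, 7.77 and 7.30 in sham replicates 1 to 4. It was 53.2, 10.9 and 44.3 in MI replicates 1 to 3, from 5455, 1158 and 4930 fragments. MI replicate 2 was only just above the highest sham mouse, so the groups did not overlap but were far apart in just 2 of the 3 MI mice. The group means were 8.72 ± 1.4 (SD, n = 4) and 36.1 ± 22.3 (SD, n = 3).

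H2-Ab1, the beta chain of I-A (ENSMUSG00000073421, plus strand of chromosome 17, 34257689 to 34269419), had an FPKM of 7.68, 5.59, 4.84 and 2.9 in the sham mice. In the MI mice it stood at 25.2, 6.23 and 32, from 2959, 760 and 4075 fragments. H2-Ab1 was the only one of the 8 genes that was higher in MI replicate 3 than in MI replicate 1, and its sham values spread more than those of most members. MI replicate 2 lay between the sham mice, so the groups overlapped, with means of 5.25 ± 1.97 (SD, n = 4) and 21.2 ± 13.4 (SD, n = 3).

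H2-Eb1 encodes the beta chain of the other classical molecule, I-E (ENSMUSG00000060586, plus strand of chromosome 17, 34305867 to 34316674). The sham values were 8.03, 12.9, 7.21 and 5.74, and sham replicate 2 was the highest. The MI values were 41.6, 7.87 and 36.9, from 3166, 623 and 3043 fragments, and MI replicate 2 again fell among the sham mice. The means were 8.48 ± 3.11 (SD, n = 4) and 28.8 ± 18.3 (SD, n = 3). The gene for the alpha chain that would pair with it is known to be defective in this strain and is annotated as H2-Ea-ps, a polymorphic pseudogene. H2-Ea-ps had 8 to 13 fragments in the sham mice and 17, 10 and 11 in MI replicates 1 to 3, so the beta chain gene was well covered in these hearts while its partner was close to the limit of detection.

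H2-DMa and H2-DMb1 encode the chains of H2-DM, which takes the last fragment of the invariant chain out of the groove and favours peptides that bind tightly. H2-DMa (ENSMUSG00000037649, plus strand of chromosome 17, 34119541 to 34139101) was a low gene, with an FPKM of 0.559, 0.518, 0.387 and 0.548 in the sham mice. It reached 2.45, 0.566 and 1.78 in MI replicates 1 to 3, from 371, 89 and 291 fragments, and MI replicate 2 exceeded the highest sham mouse by a hair. In the annotation 360 of its exon bases overlap Brd2 on the opposite strand, and since the counting is not stated to use strand, fragments there could belong to either gene.

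H2-DMb1 (ENSMUSG00000079547, plus strand of chromosome 17, 34153072 to 34160230) was the steadiest member in the sham mice after Cd74, at 1.51, 1.61, 1.72 and 1.52. In the MI mice it was 10.6, 1.58 and 7.77, and MI replicate 2 lay inside the sham range. The counts were small in the sham mice, 33 to 44 fragments, and 251, 39 and 200 in the MI mice. Its neighbour H2-DMb2 carries a near copy: 22.7% of the 50-base words of the H2-DMb1 transcripts also occur in those of H2-DMb2, so part of their fragments may have been split between them or dropped, and both values are uncertain to that extent.

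Cd74, the invariant chain (ENSMUSG00000024610, plus strand of chromosome 18, 60803848 to 60812652), was the most abundant of the 8 genes in every mouse. Its sham values were close together, at 30, 29.3, 30 and 32.6 FPKM. MI replicates 1 and 3 reached 156 and 121 FPKM, from 10276 and 8665 fragments, and MI replicate 2, at 32.8, was level with the highest sham mouse. The means were 30.5 ± 1.44 (SD, n = 4) and 103 ± 63.5 (SD, n = 3).

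Ciita (ENSMUSG00000022504, plus strand of chromosome 16, 10480059 to 10528418) was the lowest of the 8 genes, with 22 to 29 fragments in a sham mouse and an FPKM of 0.102, 0.0978, 0.0770 and 0.0865. The MI values were 1.59, 0.170 and 0.466, from 440, 49 and 140 fragments. Ciita had the widest gap between MI replicates 1 and 3 of the members, and also the largest ratio of MI replicate 2 to the sham mean, 1.87. Of its exon bases, 329 overlap Dexi on the opposite strand.

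Cd86 (ENSMUSG00000022901, minus strand of chromosome 16, 36603869 to 36666081) encodes a costimulatory ligand and no class II chain. Its FPKM was 0.631, 0.800, 0.548 and 0.762 in the sham mice and 2.60, 0.682 and 2.27 in the MI mice. MI replicate 2 lay within the sham range. At 2.70, its ratio of the MI mean to the sham mean was the smallest of the 8 genes.

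The comparison of MI with sham was tested on log2(FPKM + 1) with limma, a moderated linear model fitted across all genes that reached 1 FPKM in at least 3 of the 7 mice; the adjusted p-values are Benjamini-Hochberg values over these 11431 genes. Of the 8 members 5 passed this filter. H2-DMa, Ciita and Cd86 did not, because at most 2 mice reached 1 FPKM. At an adjusted p under 0.05, 0 of the 5 tested members were called, while 0.0175% of all genes tested were called higher. All 5 had an unadjusted p under 0.05 in limma. They also passed the lines taken here for the volcano plot in the study, an unadjusted p of 0.05 and a log2 fold change of 0.5. The text of the study gives a P under 0.05 and no fold change line. Of all genes, 17.8% passed the lines taken here on the higher side. Only 1 of the 5 passed these lines without MI replicate 1 and 1 without MI replicate 3, where 5.57% and 5.6% of all genes did, and 3 passed without sham replicate 1 or sham replicate 4 (12.9% and 12.0% of all genes). In a fit without the filter all 8 members passed them, beside 9.33% of all genes. With voom weights on the recovered fragments, 0 of the 5 were called as well, whereas with sample weights, which fall in the MI group almost wholly on MI replicate 3, all 5 were called higher and so were 66.8% of all genes.

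The log2 fold change of H2-Aa was 1.67 (standard error 0.49, limma adjusted p = 0.108). H2-Ab1 had 1.62 (standard error 0.53, limma adjusted p = 0.108) and Cd74 1.46 (standard error 0.48, limma adjusted p = 0.108). H2-Eb1 had 1.41 (standard error 0.55, limma adjusted p = 0.115) and H2-DMb1 1.31 (standard error 0.47, limma adjusted p = 0.109). The 95% intervals were wide, from 0.52 to 2.83 for H2-Aa and from 0.12 to 2.70 for H2-Eb1, and all 5 lay above 0. In the ranking of log2 fold changes the 5 genes took places 166 (H2-Aa), 188 (H2-Ab1), 260 (Cd74), 293 (H2-Eb1) and 337 (H2-DMb1) of 11431. The median over the 5 was 1.46, and the median over all genes tested was 0.21.

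For the 3 members below the filter, the mean of log2(FPKM + 1) was higher in the MI mice by 0.72 for H2-DMa, 0.69 for Cd86 and 0.59 for Ciita. In a limma fit without the filter their adjusted p-values were 0.188, 0.189 and 0.197. The added 1 FPKM is large beside these low levels, so the log2 differences understate the ratios of FPKM. An exact two-sided permutation test over the 35 ways to divide the 7 mice gave p = 0.057, the smallest it can give, for H2-Aa, H2-DMa, Cd74 and Ciita. The exact p was 0.114 for H2-Ab1 and 0.171 for H2-Eb1, H2-DMb1 and Cd86. Adjusted over the 8 genes, the smallest exact p was 0.114. Such a test cannot reach 0.05 with 3 mice against 4.

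The calls at an adjusted p under 0.05 depended on MI replicate 2. Without it, all 5 tested members were higher in MI at an adjusted p under 0.05, and so were 57.0% of all genes tested, so that nothing particular to class II genes can be read from these calls. The log2 fold changes were then 2.36 for H2-Aa (standard error 0.14, limma adjusted p = 1.80e-05), 2.29 for H2-Ab1 (standard error 0.29, adjusted p = 0.000399) and 2.14 for Cd74 (standard error 0.10, adjusted p = 8.12e-06). H2-Eb1 stood at 2.14 (standard error 0.26, limma adjusted p = 0.000338) and H2-DMb1 at 1.96 (standard error 0.11, adjusted p = 1.44e-05), against a median of 0.33 over all genes. When each mouse was also scaled by its median log-ratio, a setting chosen after the data had been seen, 30.8% of all genes and again all 5 members were called higher. The log2 fold changes of the members were then smaller, from 1.63 for H2-DMb1 to 1.98 for H2-Aa.

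By mean FPKM in the sham mice the order was Cd74 (30.5), H2-Aa (8.72), H2-Eb1 (8.48), H2-Ab1 (5.25), H2-DMb1 (1.59), Cd86 (0.685), H2-DMa (0.503) and Ciita (0.0907). Cd74, H2-DMb1 and Ciita were each separated from their neighbours in every sham mouse, whereas the ranges of H2-Aa, H2-Eb1 and H2-Ab1 overlapped, as did those of Cd86 and H2-DMa. The means of MI replicates 1 and 3 had the same order, at 139, 48.7, 39.2, 28.6, 9.17, 2.43, 2.11 and 1.03 FPKM. The middle of the order depends on the gene lengths behind the deposited values, which differ from the exon lengths of GENCODE M21, for example 5390 against 2568 bases for H2-Ab1 and 1090 against 1681 for H2-DMb1. With the GENCODE lengths the sham means were 54.9 for Cd74, 15.2 for H2-Eb1, 11 for H2-Ab1, 10.8 for H2-Aa, 1.03 for H2-DMb1, 1.01 for H2-DMa, 0.873 for Cd86 and 0.121 for Ciita on the same scale. Cd74 stayed first and Ciita last.

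The ratios of members to H2-Aa were compared within mice. The FPKM of Cd74 was 2.87 to 4.46 times that of H2-Aa in the sham mice, and 2.93, 3.02 and 2.74 times in MI replicates 1 to 3. H2-Ab1 stood at 0.397 to 0.801 of H2-Aa in the sham mice and at 0.474, 0.574 and 0.722 in the MI mice. For H2-Eb1 the ratio to H2-Aa was 0.787 to 1.27 in the sham mice and 0.782, 0.725 and 0.832 in the MI mice. For Cd74 only MI replicate 3 lay outside the sham range, for H2-Ab1 none of the MI mice did, and for H2-Eb1 MI replicate 1 lay just below it and MI replicate 2 further below. Ciita stood at 0.00958 to 0.0119 of H2-Aa in the sham mice, at 0.0105 in MI replicate 3, inside that range, and at 0.0157 and 0.0299 in MI replicates 2 and 1, above it. Cd86 stood at 0.0658 to 0.104 of H2-Aa in the sham mice and below that range in all 3 MI mice, at 0.0489, 0.0628 and 0.0512.

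Promoters of class II genes are known to share an X box, bound by the RFX complex, and a Y box, bound by NF-Y, on which CIITA is recruited. RefSeq windows of 300 bases, 250 before and 50 after a transcription start (GRCm38.p6), were given for 4 of the members (H2-Aa, H2-Eb1, H2-DMa and H2-DMb1) and for 8 of the 13 class II genes looked up. A pair of letter patterns, chosen after these sequences had been seen, were searched on both strands: TGATTGG, the core of the Y box, and CNNNNAAC, as the X box has it, starting 25 to 40 bases before it. TGATTGG alone occurred on either strand in 7.82% of all 32851 windows, and the pair occurred in 0.384%, or in 0.174% on the strand of the gene. The pair was found on the strand of the gene in H2-Aa, H2-Eb1 and H2-DMb1 and in none of the windows of H2-DMa. It was also found in the related genes H2-DMb2, H2-Oa, H2-Ob and H2-Eb2. The 100 bases from 140 to 41 before the start are shown 5′ to 3′ on the strand of the gene, with the letters of the pair in capitals, for the members whose printed bases overlap no exon, H2-Aa and H2-Eb1, and for H2-DMb2, H2-Ob and H2-Eb2, whose levels are compared with the members below.
H2-Aa, chr17:34287864-34287963, minus strand: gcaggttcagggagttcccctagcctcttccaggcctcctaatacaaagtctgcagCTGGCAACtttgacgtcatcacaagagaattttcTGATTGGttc
H2-Eb1, chr17:34305727-34305826, plus strand: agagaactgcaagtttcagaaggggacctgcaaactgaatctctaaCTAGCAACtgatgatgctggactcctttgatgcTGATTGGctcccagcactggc
H2-DMb2, chr17:34145109-34145208, plus strand: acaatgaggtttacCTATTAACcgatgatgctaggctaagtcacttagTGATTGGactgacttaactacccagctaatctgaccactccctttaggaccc
H2-Ob, chr17:34238765-34238864, plus strand: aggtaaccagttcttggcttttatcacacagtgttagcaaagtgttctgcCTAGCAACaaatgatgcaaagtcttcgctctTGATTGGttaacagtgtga
H2-Eb2, chr17:34325535-34325634, plus strand: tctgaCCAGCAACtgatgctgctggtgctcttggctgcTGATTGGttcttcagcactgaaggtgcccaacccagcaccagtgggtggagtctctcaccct
The starts of the paired letters were 34 bases apart in H2-Aa, H2-DMb1 and H2-DMb2, 33 in H2-Eb1 and H2-Eb2, 31 in H2-Ob and 30 in H2-Oa. H2-Oa held 2 matches of CNNNNAAC, of which the nearer to TGATTGG is given, and is not printed because its TGATTGG reaches past the stretch shown. The place of the first letters varied, from 75 bases before the start in H2-Oa to 135 bases in H2-Eb2. A match of letters is a description and was not tested for binding.

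Among the other class II chains, H2-DMb2, the second H2-DM beta chain gene, H2-Oa and H2-Ob, the chains of H2-O, which inhibits H2-DM and is known mainly from B cells, and H2-Eb2 lie in the same stretch of chromosome 17. None of these genes or H2-Ea-ps passed the filter, so 0 of 5 were tested. H2-DMb2 had 7 to 14 fragments in the sham mice and 338, 19 and 96 in MI replicates 1 to 3, and MI replicate 2 exceeded all sham mice. H2-Ob had 35 fragments in sham replicate 1, 11 to 13 in the other sham mice, and 271, 10 and 144 in the MI mice. H2-Oa was at 2 to 3 fragments in the sham mice and at 66, 0 and 33 in the MI mice, and H2-Eb2 at 0 to 3 and at 57, 1 and 21. All 4 were higher in MI replicate 1 than in MI replicate 3, and in MI replicate 2 all but H2-DMb2 were inside or below the sham range.

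The class II region from H2-Oa to H2-Ea-ps spans 252.3 kb. It holds 15 genes of the table annotated as protein-coding or as a polymorphic pseudogene, 10 of them class II genes and 5 of them members. Genes of other annotated types were not counted. The other 5 of the 15 were Brd2, a chromatin reader, and Psmb8, Psmb9, Tap1 and Tap2, which make and carry peptides for class I molecules. In MI replicates 1 and 3, the mean log2(FPKM + 1) exceeded that of the sham mice by 2.36 for H2-Aa, 2.29 for H2-Ab1, 2.14 for H2-Eb1, 1.96 for H2-DMb1 and 1.04 for H2-DMa. The 5 genes between them that are not class II genes had differences of 0.54 (Tap2) to 1.15 (Psmb8). At H2-Ea-ps, next to H2-Eb2, the difference was 0.12. The order of these differences depends on the added 1 FPKM, which makes them smaller for low genes. By the ratio of FPKM to the sham mean, H2-DMb2 (19.6) and H2-Ob (11.5) stood above H2-Aa (5.59), H2-Ab1 (5.45) and H2-Eb1 (4.63), although their differences were 1.74 and 0.86.

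**Figure D2:**
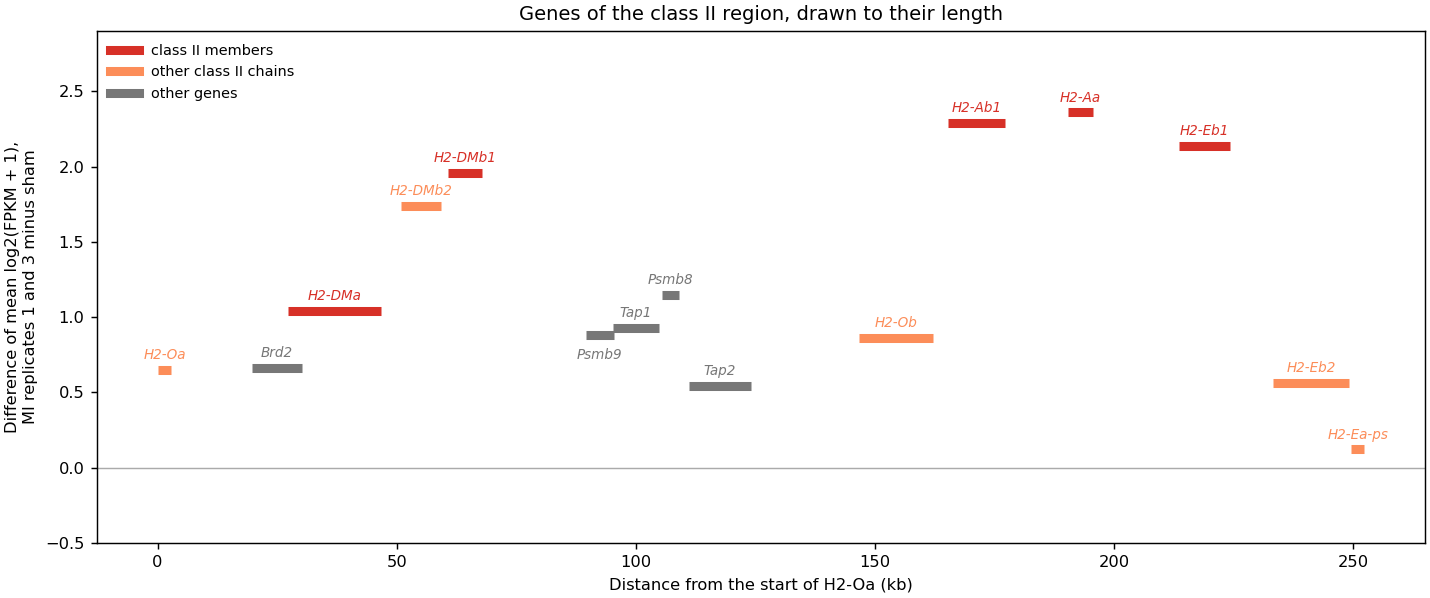
Each bar is a protein-coding gene or polymorphic pseudogene of the class II region. It is drawn to its length and at its distance in kb from the start of H2-Oa. Its height is the difference of mean log2(FPKM + 1) between MI replicates 1 and 3 and the 4 sham mice. Red bars are members, orange bars other class II chains and grey bars other genes; on this scale, which understates low genes such as H2-DMb2 and H2-Ob, H2-Ab1, H2-Aa and H2-Eb1 lie between 2.14 and 2.36 and H2-Ea-ps at 0.12.

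MI replicates 1 and 3 were compared by the ratio of their FPKM with a 95% interval for counting error only, a comparison of 2 mice and not of conditions. H2-Aa was 1.2 times as high in MI replicate 1 (1.15 to 1.25), H2-Eb1 1.13 times (1.07 to 1.19), H2-DMa 1.38 times (1.18 to 1.62), H2-DMb1 1.36 times (1.13 to 1.65) and Cd74 1.29 times (1.25 to 1.32). H2-Ab1 had a ratio of 0.787 (0.750 to 0.826), and Cd86 a ratio of 1.14, whose interval of 0.959 to 1.37 included 1. Ciita was set apart, at 3.41 times (2.81 to 4.15). The interval of Ciita overlapped none of those of the other 7 members.

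Among the related chains, H2-DMb2 had a ratio of 3.82 (3.03 to 4.84), H2-Eb2 2.94 (1.76 to 5.11), H2-Oa 2.17 (1.41 to 3.40) and H2-Ob 2.04 (1.66 to 2.51). The H2-DMb2 to H2-DMb1 ratio was 0.0697 to 0.143 in the sham mice, 0.184 in MI replicate 2, 0.182 in MI replicate 3 and 0.509 in MI replicate 1. B cell markers differed between the same 2 mice. Over a list of 12 B cell markers the summed FPKM was 4.01 to 4.84 in the sham mice, 614 in MI replicate 1, 4.63 in MI replicate 2 and 122 in MI replicate 3, a ratio of 5.01, and most of the sum was Ighm, the heavy chain of IgM, at 554 and 112. Cd79a, a signalling chain of the B cell receptor, was at 0.275 to 0.398 in the sham mice and at 16.9, 0.243 and 2.30 in the MI mice. Ms4a1, which encodes CD20, was listed at 0 in MI replicate 2. Single markers of the list had ratios from 3.83 (Fcer2a, 2.85 to 5.22) to 8.38 (Pax5, 6.04 to 11.9), and the intervals of 6 of the 12 overlapped that of Ciita. The summed lists of other cells were closer together, with ratios of 1.16 for 18 macrophage and monocyte markers, 1.19 for 14 dendritic cell markers and 1.31 for 17 T cell markers. Single macrophage and monocyte markers ran from 0.465 (Cx3cr1) to 1.63 (Ly6c2), dendritic cell markers from 0.352 (Clec9a) to 1.71 (Itgae) and T cell markers from 0.957 (Lag3) to 2.44 (Zap70, 1.59 to 3.82). Outside the class II chains and the B cell markers, 15 genes of the lists had an interval that overlapped that of Ciita, and for 9 of them it lay above 1. They included Cxcl13, a chemokine that attracts B cells, at 3.76 (3.34 to 4.23), Socs1, an inhibitor of cytokine signalling, at 2.56 (1.93 to 3.42), and Zap70. The part of B cells in the values of Ciita and of the related chains was not tested.

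**Figure D3:**
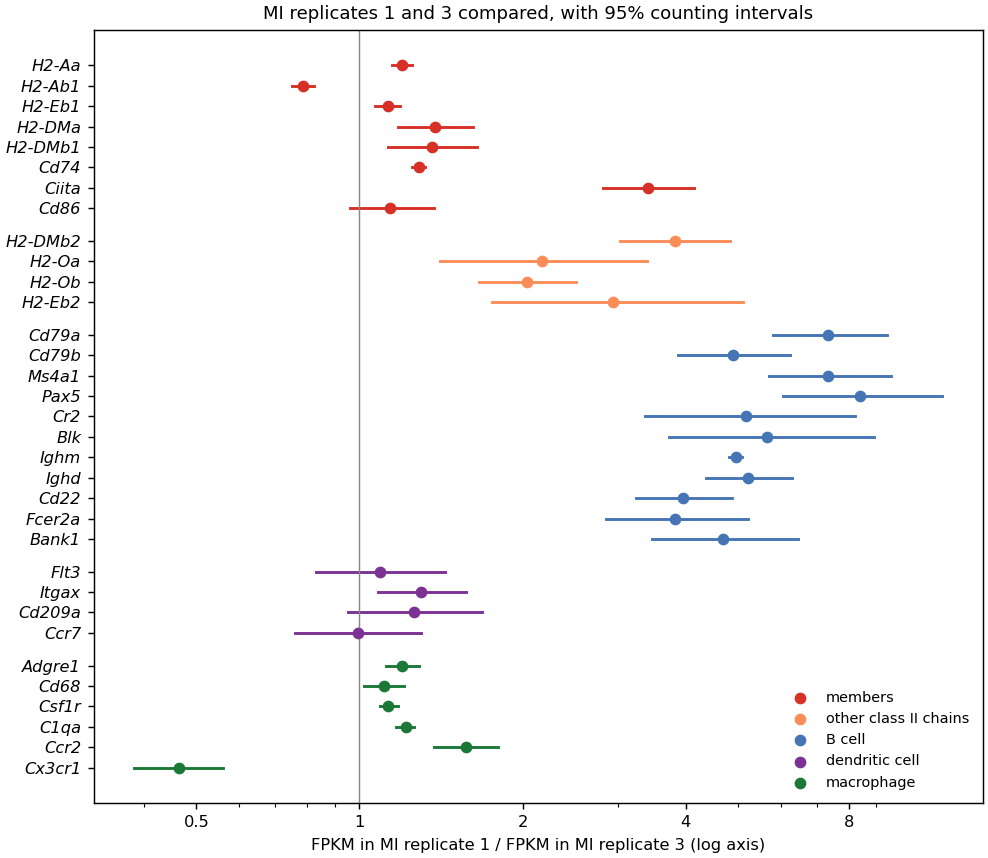
FPKM in MI replicate 1 divided by FPKM in MI replicate 3, on a log axis, with 95% intervals for counting error, for the members (red), other class II chains (orange), 11 markers of B cells (blue), and some markers of dendritic cells (purple) and of macrophages and monocytes (green). Members other than Ciita lie between 0.787 and 1.38, Ciita and H2-DMb2 at 3.41 and 3.82, the B cell markers between 3.83 and 8.38, and the macrophage and monocyte markers shown between 0.465 (Cx3cr1) and 1.57 (Ccr2).

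Ptprc, which encodes CD45 on all leukocytes, had an FPKM of 0.367 to 0.379 in the sham mice and of 2.86, 0.475 and 2.15 in the MI mice, so that the mean of MI replicates 1 and 3 was 6.73 times the sham mean. For the macrophage gene Adgre1 (F4/80) the sham values were 2.96 to 4.14, the MI values 21.3, 3.84 and 17.7, and the ratio 5.65. The class II chains, H2-DM and Cd74 had ratios of 4.21 (H2-DMa) to 5.77 (H2-DMb1), with Cd86 below them at 3.55 and Ciita above at 11.3. Within each mouse the log2(FPKM + 1) of a marker was subtracted from that of a member, and the difference was compared between MI and sham with exact two-sided permutation tests. Relative to Adgre1, the difference was higher in MI for 2 of the 8 members, by 0.16 for H2-Aa and 0.11 for H2-Ab1, and lower for 6, by -0.05 for Cd74, -0.10 for H2-Eb1 and -0.21 for H2-DMb1 to -0.92 for Ciita. The smallest exact p was 0.114, and 0.305 after adjustment over the 8 members. The values of the low genes depend on the added 1 FPKM: with 0.1 FPKM added, the difference was 0.04 for Ciita, higher in MI, and -0.40 in place of -0.80 for H2-DMa. Without MI replicate 2 the same 2 members were higher (H2-Aa by 0.16, H2-Ab1 by 0.09), and the values were -1.37 for Ciita, -1.18 for Cd86 and -1.16 for H2-DMa.

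Relative to Ptprc the difference was higher in MI for 5 of the 8 members (H2-Aa, by 0.74, H2-Ab1, H2-Eb1, H2-DMb1 and Cd74) and lower for H2-DMa, Ciita and Cd86, with a smallest exact p of 0.114, or 0.183 adjusted. Without MI replicate 2 the signs were those given here, with 1.02 for H2-Aa and a smallest exact p of 0.133. The signs depended on the 1 FPKM added before the logarithm. With 0.1 FPKM added, 3 of the 8 were higher, H2-Aa by 0.03, H2-Ab1 by 0.04 and Ciita by 0.01. Cd74 was then lower by -0.24 and Cd86 by -0.59, both at an exact p of 0.057 (0.229 adjusted). No adjusted exact p was under 0.05 for either marker, which 3 mice against 4 cannot give.

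The lists below were chosen by pathway and are described by counts over the genes tested, beside the 17.8% of all genes past the volcano lines on the higher side. In none of them was a gene called at an adjusted p under 0.05 with all mice. Without MI replicate 2, 13 of 14 processing genes, 7 of 8 interferon gamma genes, 6 of 7 costimulatory genes and 15 of 17 class I genes were called higher, where 57.0% of all genes were. The other interferon gamma gene, Ifngr2, was called lower, as were 14.7% of all genes. Of 14 tested genes for the processing and turnover of class II molecules, 11 passed the volcano lines on the higher side, with a median log2 fold change of 0.88, or 1.35 without MI replicate 2. Ctss, the protease that trims the invariant chain, had an FPKM of 7.40 to 10 in the sham mice and of 117, 12.5 and 94.3 in the MI mice, a log2 fold change of 2.40 (standard error 0.70, limma adjusted p = 0.108), larger than that of any tested member, and 3.39 without MI replicate 2. Ifi30, a thiol reductase of endosomes, stood at 7.72 to 9.92 and at 75.2, 10.5 and 50.7, and Lgmn, an asparaginyl endopeptidase, at 20.9 to 29.0 and at 82.6, 29.0 and 65.6. March1 (now Marchf1), the ligase that marks class II molecules for removal, was low, at 0.0462 to 0.0950 in the sham mice and 0.493, 0.0934 and 0.227 in the MI mice.

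Of 10 tested genes for factors that work with CIITA at class II promoters, 0 passed the volcano lines, and the median log2 fold change was 0.10, below that of all genes, or 0.20 without MI replicate 2. Rfx5, the DNA-binding subunit of the RFX complex, was below the filter, at 0.296 to 0.364 in the sham mice and at 0.909, 0.356 and 0.496 in the MI mice. Its partners Rfxap and Rfxank had log2 fold changes of 0.08 and 0.12, or 0.20 and 0.21 without MI replicate 2. The NF-Y subunit genes Nfya, Nfyb and Nfyc had 0.18, 0.28 and -0.22, or 0.30, 0.42 and -0.25 without it. The largest of the 10 values was 0.47, for Creb1 (limma adjusted p = 0.108), or 0.62 without MI replicate 2 (adjusted p = 0.00328). In Creb1 every MI mouse was above every sham mouse. These 5 subunit genes and Creb1 were named after their values had been seen. Without MI replicate 2, 5 of the 10 genes were called higher, among them Rfxank (limma adjusted p = 0.02) and Nfyb (adjusted p = 0.00289), and Nfyc was called lower (adjusted p = 0.00891), where 57.0% of all genes were called higher and 14.7% lower.

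Interferon gamma is the best known inducer of Ciita. Ifng itself had 0 fragments in every mouse but MI replicate 1, where it had 1. Of 8 tested genes of a list that held its receptor and signalling genes and cytokines such as Tgfb1, 2 passed the volcano lines on the higher side, Ifngr1 and Jak2, and the median was 0.49, or 0.73 without MI replicate 2. With all mice neither receptor chain was called. Ifngr1 was at 7.53 to 9.83 in the sham mice and at 19.7, 8.37 and 17.7 in the MI mice (log2 fold change 0.74, limma adjusted p = 0.110, or 1.09 and 0.000132 without MI replicate 2), with MI replicate 2 inside the sham range. Ifngr2 was at 32.3 to 34.3 in the sham mice and below that range in all 3 MI mice, at 24.9, 27.9 and 27.6 (log2 fold change -0.31, limma adjusted p = 0.108, or -0.34 and 0.00234 without MI replicate 2). These receptor genes and Jak2 were named after their values had been seen. Irf1, a transcription factor that interferon gamma induces, was at 1.86 to 2.72 in the sham mice and at 4.37, 2.28 and 4.22 in the MI mice, with a log2 fold change of 0.47 (standard error 0.20, limma adjusted p = 0.123), or 0.70 without MI replicate 2 (adjusted p = 0.00147). MI replicate 2 lay inside its sham range.

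Among the costimulatory genes other than Cd86, 2 of 7 tested passed the volcano lines on the higher side, with a median of 0.69, or 1.12 without MI replicate 2. Cd80, which binds the same receptors as Cd86, was at 0.138 to 0.300 FPKM in the sham mice and at 1.81, 0.245 and 1.04 in the MI mice. Cd40, the receptor through which T cells stimulate presenting cells, was at 0.192 to 0.431 and at 0.747, 0.303 and 0.590. Both were below the filter, and in both MI replicate 2 was in the sham range. MI replicates 1 and 3 exceeded every sham mouse in both.

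MHC class I molecules show peptides from inside the cell to CD8+ T cells. Of 17 tested genes of class I presentation, 10 passed the volcano lines on the higher side, with a median of 0.69, or 0.92 without MI replicate 2. B2m, the shared light chain, was at 203 to 225 in the sham mice and at 568, 196 and 518 in the MI mice, a log2 fold change of 0.87 (standard error 0.35, limma adjusted p = 0.118), or 1.36 without MI replicate 2 (adjusted p = 8.90e-06). The heavy chains H2-K1 and H2-D1 had 1.16 (standard error 0.38) and 1.18 (standard error 0.38), both with a limma adjusted p of 0.108, and 1.66 and 1.71 without MI replicate 2 (adjusted p = 0.000135 and 1.42e-05). With all mice the largest of the 17 class I values, 1.18, was below the smallest of the 5 tested class II values, 1.31, and the difference between them was not tested. Nlrc5, the class I counterpart of Ciita, was at 0.424 to 0.634 and at 1.94, 0.547 and 1.22. The ratio of MI replicate 1 to MI replicate 3 was 1.59 (1.39 to 1.81) for Nlrc5, against 3.41 for Ciita.

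**Figure D4:**
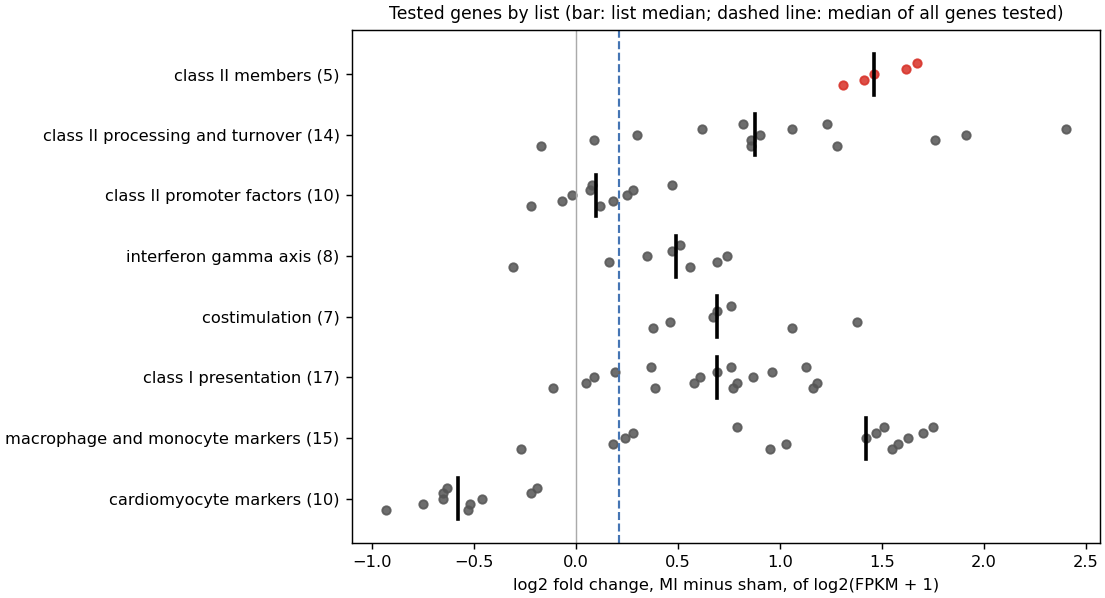
Log2 fold change of log2(FPKM + 1), MI minus sham with all 7 mice, for the tested genes of 8 lists; each point is a gene, black bars are list medians, the number of genes is in brackets, and the dashed line marks the median of all genes tested, 0.21. The 5 class II members (red) lie between 1.31 and 1.67, and promoter factors scatter around a median of 0.10.

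Markers of the cells that present to, or respond to, class II molecules were read in the same mice. Of 15 tested macrophage and monocyte genes, 11 passed the volcano lines on the higher side, with a median log2 fold change of 1.42, beside the 1.46 of the class II members. Without MI replicate 2 both medians were 2.14. The 4 tested genes of the list that did not pass had log2 fold changes of 0.28 (Cd163, with every MI mouse above every sham mouse), 0.24 (Folr2), 0.18 (Lyve1) and -0.27 (Timd4). These were 0.20, 0.39, 0.19 and -0.24 when MI replicate 2 was left out, and Folr2 was called (limma adjusted p = 0.0121). In all, 12 of the 15 genes were then called higher, where 57.0% of all genes were. Ccr2, the receptor of recruited monocytes, was at 0.0736 to 0.183 in the sham mice and at 1.69, 0.297 and 1.08 in the MI mice. Of the dendritic cell genes, Flt3 was at 0.00690 to 0.0747 and at 0.810, 0.0358 and 0.741, Itgax (CD11c) at 0.185 to 0.264 and at 2.23, 0.192 and 1.72, and Cd209a at 0.0304 to 0.148 and at 1.83, 0.142 and 1.45. Zbtb46, a transcription factor of classical dendritic cells that endothelial cells also use, had a log2 fold change of 0.27 (standard error 0.13, limma adjusted p = 0.151), or 0.41 without MI replicate 2 (adjusted p = 0.00362).

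T cell genes and receptors of costimulation were low, and 0 of 17 passed the filter. In 9 of the 17 every MI mouse was above every sham mouse, and in 1, Ctla4, every MI mouse was below, at 0.381, 0.749 and 0.293 against 0.767 to 1.13. Of the 19073 genes below the filter that were above 0 in any mouse, 9.61% had every MI mouse above every sham mouse and 1.54% every MI mouse below. CTLA4 and CD28 are the receptors of CD86, and Cd28 was at 0.676 to 0.885 in the sham mice and at 0.656, 0.989 and 0.380 in the MI mice; both were named after their values had been seen. Cd4, the coreceptor that binds class II molecules and that some macrophages also carry, was at 0.192 to 0.260 in the sham mice and at 1.10, 0.321 and 0.905 in the MI mice. Cd3e, a chain of the T cell receptor complex, had 2 to 6 fragments in the sham mice and 60, 14 and 36 in the MI mice. In both genes MI replicate 2 was above every sham mouse, as in 4 of the 8 members. Of a list of 8 thymus and lymph node genes, 5 were at 0 in every sham mouse. Among these, Rag1, needed to assemble antigen receptors, had 37, 43 and 70 fragments in MI replicates 1 to 3, and Dntt, an enzyme of the same process, 7, 8 and 11, so that for both MI replicate 2 lay between the other MI mice. In the limma fit without the filter, Dntt had an adjusted p of 0.0194 and Rag1 of 0.0883. Foxn1, the thymic epithelial factor, was at 0 in all 7 mice, and the part of other tissue in the samples was not tested. The 10 cardiomyocyte genes had a median log2 fold change of -0.58, or -0.86 without MI replicate 2, and 6 of them passed the volcano lines on the lower side, as did 4.80% of all genes tested. When MI replicate 2 was left out, 9 of the 10 were called lower, where 14.7% of all genes were. Their summed FPKM was 15057 to 16503 in the sham mice, 14996 in MI replicate 2, and 10214 and 11054 in MI replicates 1 and 3.

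The profile of the 5 tested members over the 7 mice, each centred on its mean, was compared with 11426 other genes by Pearson's r. The 5 most alike were Cfap36 (0.9994), Zdhhc9 (0.9990), Rps19-ps6 (0.9990), Unc50 (0.9986) and Fam32a (0.9985). Rps19-ps6 is a pseudogene of a ribosomal protein gene, and its fragments may come from that gene. The log2 fold changes of these genes were 0.33 to 0.84, smaller than those of the members. In all, 534 genes (4.67%) had an r of at least 0.99, and between pairs of the 8 members r ran from 0.781 to 0.9965 over 28 pairs. Over the 6 mice without MI replicate 2, 880 genes (7.70%) had an r of at least 0.99, and the 5 named genes had an r of 0.9985 to 0.9997 and places from 1 to 27.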

How the data were processed

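Total RNA of mouse heart tissue was sequenced in 7 libraries (4 sham, 3 MI), and the authors deposited 1 table of FPKM values, scaled by gene length and library size, for 56980 genes and all 7 libraries. The submitters' processing notes name CASAVA 1.8, HISAT2, SAMtools 1.3.1, edgeR and mm10. The annotation, the counting program and the use of strand are not given in the sources used here. Groups came from the sample labels.

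Identifiers were joined to GENCODE M21 on GRCm38 (52073 symbols, 91.4%). Whole fragments were recovered from the FPKM steps for 30493 of the 30504 genes above 0, within 0.05 of a whole number. FPKM values were not rescaled between mice. Log2(FPKM + 1) was tested in limma 3.58.1 (lmFit, eBayes with trend, R 4.3.3) and adjusted by the Benjamini-Hochberg method over 11431 genes with at least 1 FPKM in at least 3 mice; single values were tested by exact permutation (SciPy 1.17.1, Python 3.11.15). Counting intervals have a level of 95% and cover counting error only. The tests and the recovery were tested on simulated data. Promoters are from RefSeq.

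The members and gene lists were chosen with earlier results of these data known. Named are all members, a set of pathway and marker genes chosen by role, list genes at an adjusted p under 0.05 (0 were found with the filter), and the 5 genes most like the members; other list genes were named after their values were seen, and 2 genes under this rule are not reported here. Alternatives were another pseudocount, filters, TPM rescaling, quantile and median log-ratio scaling, mitochondrial genes left out, no trend, sample weights, voom weights on fragments, a replicate block, and each mouse left out. Leaving out MI replicate 2 together with median log-ratio scaling was added after seeing the data, as was the likeness of patterns without MI replicate 2.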

Additional observations from a re-analysis of the deposited data

Results flagged for a closer look

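In 2 of 34 sets of 4 sham values, the gap of 1 mouse to its nearest neighbour took up more of the range than Dixon's 95% critical value for 4 values allows. For H2-Ob the share was 0.997, with sham replicate 1 at 0.168 FPKM and the other sham mice at 0.0593 to 0.0597. For H2-Oa it was 0.892, with sham replicate 4 highest at 0.0426 FPKM, from 3 fragments. Chance gives such a value in about 1 in 20 sets.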

How the results depend on the processing

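When single mice were left out, members were called at an adjusted p under 0.05 only without MI replicate 2, whereas the volcano counts fell most without MI replicate 1 or 3. At an adjusted p under 0.05 in limma, 0 of the 5 tested members (all 5 at an unadjusted p under 0.05) and 0 of 56 other antigen presentation genes were called. The numbers were 5 and 49 with sample weights, which put nearly all weight of the MI group on MI replicate 3 and called 66.8% of all genes higher, and 0 to 5 and 0 to 46 when each mouse was left out, the highest without MI replicate 2 (57.0% of all genes). With median log-ratio scaling also applied they were 5 and 35 without MI replicate 2 (30.8%). Past the volcano lines, 5 members and 25 other genes were counted (17.8% of all genes). Without a filter 8 members passed (9.33%), and with 1 mouse left out 1 to 5 members and 7 to 36 other genes did (5.57% to 35%). The lowest member counts were 1 without MI replicate 1 (5.57%) and 1 without MI replicate 3 (5.6%), and 3 without sham replicate 1 (12.9%) or sham replicate 4 (12.0%). Median log-ratio scaling left 17 of the other genes and quantile normalization 19. The log2 fold changes of the 5 tested members stayed above 0 in all 19 alternatives, at 0.88 (H2-DMb1, without MI replicate 1) or more. The cause of these changes was not tested.

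Relative to Ptprc, 3 instead of 5 members were higher in MI with a pseudocount of 0.1, where H2-Eb1 (-0.24), H2-DMb1 (-0.10), Cd74 (-0.24) and Ciita (0.01) changed sign, and 5 with any mouse left out. Relative to Adgre1, 2 members were higher, and 1 to 3 with a mouse left out. Ciita turned to 0.04 with a pseudocount of 0.1, H2-Eb1 to 0.11 without sham replicate 2, and H2-Ab1 to -0.09 without sham replicate 4 and -0.03 without MI replicate 3, within a range of -0.09 to 0.26 over the mice left out.

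With the replicate block 0 members and 0 other genes were called, and 4 members and 19 other genes passed the volcano lines (13.4% of all genes). Same-numbered sham and MI mice did not deviate together (correlations 0.074, -0.016 and -0.08 for numbers 1 to 3), so the numbers were not taken as pairs, and they did not each correlate best with their own number. Depth limits Ciita, H2-DMb1 and the related chains, with under 50 fragments in each sham mouse.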
